A study of Mus musculus with 14 samples.

Results

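MPP4 and MPP3 are 2 kinds of multipotent progenitor in mouse bone marrow, and their gene expression was compared in young mice on 8 of the 14 arrays of the series: 5 arrays of MPP4 and 3 of MPP3. The arrays were chosen by labelled population and age alone, without use of any measured value. All mice were wild-type C57BL/6, and the young ones were 8 to 10 weeks old. Both populations were Lin-, c-Kit+ and Sca-1+ cells of the bone marrow. MPP4 were Flk2+, and MPP3 were Flk2-, CD48+ and, per the labels, CD150-. The study's methods print CD150+ for MPP3, so the sources differ on this marker, and the arrays were grouped by the labels. Each array carried linearly amplified RNA of 20000 sorted cells, and the arrays of a group are labelled as biological replicates, without the number of mice behind each. The other 6 arrays, 3 of each population from mice 24 months old, were used to set the same genes side by side at another age. They also entered the choice of a probe set for the 76 genes that had several, and 1 further fit of all 4 groups. A clustering of all 14 arrays, described below, used them as well.

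MPP3 and MPP4 arise from hematopoietic stem cells and retain several blood lineages. MPP3 is known as a myeloid-biased progenitor, which mainly gives granulocytes and macrophages, and MPP4 as a lymphoid-primed progenitor, which feeds the common lymphoid progenitor and still makes myeloid cells. Priming means that such cells already transcribe low levels of the genes of several lineages, before surface markers of a mature lineage appear. Flk2, the protein of Flt3, is the receptor of Flt3 ligand, a cytokine needed for lymphoid and dendritic cell development.

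Values are normalized ranks: a gene's value on an array is -ln(s), where s is the part of that array's ranked probe sets that were at least as bright, so the dimmest probe set has a value of 0. Differences are given in this unit, as MPP4 minus MPP3, and are not fold changes. A gene was called when the limma test across 19155 genes gave a Benjamini-Hochberg adjusted p under 0.05. Arrays correlated with one another at 0.958 to 0.994 within a population and at 0.951 to 0.974 between populations, taken across probe sets. All 14 arrays were clustered across the dimmest 33.3% of probe sets and cut into 2 groups, called array sets here. The labels give no reason for these groups. MPP3 replicate 1 and MPP4 replicates 1 and 2 formed array set 1, and the other 5 young arrays formed array set 2, so both sets held both populations. A second fit therefore held the array set as a term. Xist, which is transcribed in female cells, was high on MPP3 replicate 1 (3.52) and on MPP4 replicates 1, 4 and 5 (3.49, 3.19 and 2.23) and between 0.106 and 0.138 on the other 4 arrays. Eif2s3y, a gene of the Y chromosome, was at 0.0221 and 0.0261 on replicate 1 of MPP3 and of MPP4, and at 0.855 and 1.89 on MPP4 replicates 4 and 5, which thus carried signal of both. A fit of only the 4 arrays with low Xist, 2 of each population, made no call, with 2517 genes at an unadjusted p under 0.05 by limma.

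In young mice, 13 genes were called higher in MPP4, or 0.0679% of those tested, and 12 were called lower, or 0.0626%. The lowest adjusted p belonged to the antibody genes Jchain and Ighm, which were lower in MPP4, and to the chemokine gene Ccl3, which was higher. All 25 called genes had MPP3 and MPP4 arrays that did not overlap, where 3.74% of all genes did not overlap with MPP4 higher and 3.72% with MPP4 lower. With array set as a term, 155 genes (0.809%) were called higher in MPP4 and 116 (0.606%) lower, and these included all 25. Because the arrays of these 25 did not overlap between populations, their sign of difference was bound to be the same within array set 1 and within array set 2. The median difference over all genes was -0.000129, and 50.1% of them had a lower mean in MPP4. The plot of called genes by array shows the 21 that have a gene name, and the other 4 were unnamed gene models.

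**Figure D1:**
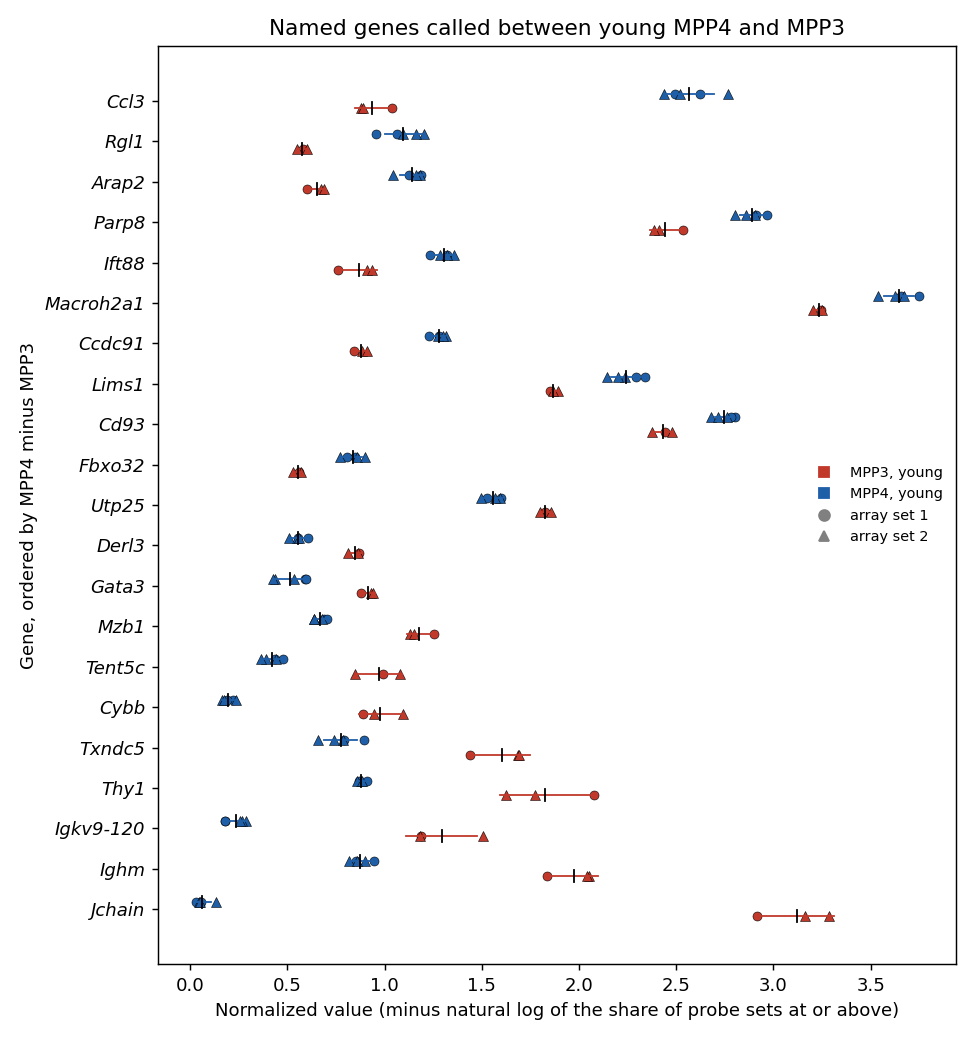
Normalized value (horizontal axis) of the 21 named genes called between young MPP4 (blue, 5 arrays) and MPP3 (red, 3 arrays), ordered by their difference, with array set 1 as circles and array set 2 as triangles. Vertical ticks are group means and horizontal bars the SD. Jchain lay between 2.92 and 3.29 in MPP3 and between 0.0302 and 0.135 in MPP4, and Ccl3 between 0.881 and 1.04 in MPP3 and between 2.44 and 2.77 in MPP4.

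The number of calls depended on single arrays. With 1 array left out in turn it ranged from 8 (without MPP3 replicate 2 or MPP4 replicate 5) to 108 (without MPP3 replicate 1). It was 9 without MPP3 replicate 3, 10 without MPP4 replicate 3 or replicate 4, 24 without MPP4 replicate 2 and 38 without MPP4 replicate 1. Jchain, Ighm, Igkv9-120, Cybb, Mzb1, Ccl3 and Ccdc91 were called in all 8 of these fits. All 25 genes kept their direction in them, as genes without overlap must. A fit of all 4 groups, which shares the spread with the old arrays, called 36 genes, 18 in each direction, and 13 of the 25 were among them. Of the 7 genes, Jchain, Ighm and Ccl3 were called in it. Ccdc91 (adjusted p = 0.0912), Igkv9-120 (0.0963), Mzb1 (0.0967) and Cybb (0.17) were not, nor were Thy1, Gata3, Parp8, Ift88 and Lims1 (0.0538 to 0.17). With array set as a term, the 271 calls became 14 to 917 when 1 array was left out, and 11 genes were called in every such fit: those 7 together with Dntt, Mef2c, Dnajb9 and Rnf139. The 14 came without MPP3 replicate 2, the 917 without MPP3 replicate 1. Leaving out MPP3 replicate 3 gave 20, MPP4 replicate 5 gave 18, MPP4 replicates 3 and 4 gave 40 and 37, and MPP4 replicate 1 gave 538.

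Among antibody genes 3 were called, all lower in MPP4, where 0.0626% of all genes were called lower. The antibody genes measured were not counted, so no share of them is given. Jchain encodes the joining chain that links the units of secreted IgM and IgA. Its values were 2.92, 3.16 and 3.29 on the MPP3 arrays and 0.0553, 0.0302, 0.0431, 0.135 and 0.0519 on the MPP4 arrays. In MPP3 it thus stood among the top 4.41% of probe sets, and in MPP4 93.9% of probe sets lay at or above it. The difference was -3.06 (SE 0.0767, adjusted p = 1.41e-05), the largest of any gene in either direction.

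Ighm, the heavy chain of IgM, had values of 1.84, 2.05 and 2.04 in MPP3 and of 0.943, 0.853, 0.901, 0.818 and 0.858 in MPP4. The groups lay far apart relative to their spread, with a difference of -1.10 (SE 0.0555, adjusted p = 0.000753). Igkv9-120, a kappa light chain variable segment, was at 1.19, 1.51 and 1.18 in MPP3 and at 0.179 to 0.287 in MPP4 (-1.06, SE 0.077, adjusted p = 0.00452). Variable segments are near copies of one another, so signal on this probe set can come from related segments. Igkv19-93, another kappa segment, was called only with array set as a term. That call held in 3 of the 8 fits that kept the term and left out 1 array. Igha, the heavy chain of IgA, was at 1.30, 2.34 and 2.35 in MPP3 and at 0.181 to 0.322 in MPP4, and was called only with array set as a term (adjusted p = 0.0314, against 0.0559 without it), and in 3 of the 8 fits that kept the term and left out 1 array.

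Genes that serve antibody secretion were lower in MPP4 as well. Mzb1, a chaperone of the endoplasmic reticulum (ER) that helps assemble IgM, was at 1.25, 1.13 and 1.15 in MPP3 and at 0.690, 0.703, 0.679, 0.638 and 0.636 in MPP4 (-0.509, SE 0.0335, adjusted p = 0.0031). Txndc5, a disulfide isomerase of the ER, was at 1.44, 1.68 and 1.69 in MPP3 against 0.660 to 0.897 in MPP4 (adjusted p = 0.0138). Tent5c, a poly(A) polymerase that lengthens the tails of secretory transcripts, had a difference of -0.550 (SE 0.0535, adjusted p = 0.0188). Derl3, a part of the pathway that removes misfolded proteins from the ER, was at 0.870, 0.864 and 0.809 in MPP3 and at 0.510 to 0.605 in MPP4 (adjusted p = 0.0174). Txndc5 was called in 4 of the 8 fits with 1 array left out, and Tent5c and Derl3 in 3 each.

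A list of 15 genes known from plasma cells, the antibody-secreting end stage of the B lineage, was put together once these values were known and is described without a test. All 15 had a lower mean in MPP4, against 50.1% of all genes, and 14 did so without overlap, against 3.72%. Of the 15, 6 were called lower, against 0.0626% of all genes, and 11 with array set as a term, against 0.606%. The median difference was -0.548. Irf4, a factor needed for plasma cell formation, was at 0.396, 0.962 and 0.856 in MPP3 and at 0.174 to 0.199 in MPP4 (adjusted p = 0.16). Xbp1, the factor of the secretory program, had means of 1.87 in MPP3 and 1.40 in MPP4 and was called only with array set as a term (adjusted p = 0.0369), and in 2 of the 8 fits that kept the term and left out 1 array. Prdm1, the gene of Blimp-1, had means of 0.436 and 0.222 and was not called in either fit. Sdc1, the gene of the plasma cell surface marker CD138, overlapped between the groups (0.665 to 0.999 in MPP3, 0.698 to 0.926 in MPP4). The mean value of the 15 genes on an array was 1.24 to 1.49 in MPP3 and 0.540 to 0.625 in MPP4, and in old mice 0.835 to 1.29 and 0.594 to 0.626. As far as the study's methods give it, cells were enriched for c-Kit with microbeads and sorted in 2 rounds for purity. The lineage stain held antibodies to CD3, CD4, CD5, CD8, CD11b, B220, Gr1 and Ter119. The part of plasma cells in these differences was not tested. In sorted bulk RNA, fewer cells of a type and less RNA per cell cannot be told apart.

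Of 15 further genes of ER folding and secretion, also collected afterwards, 13 had a lower mean in MPP4, 11 of them without overlap. Of all genes, 50.1% had a lower mean and 3.72% were lower without overlap. None of the 15 was called, and 5 were with array set as a term, against 0.606% of all genes called lower. Sel1l, of the ER degradation complex, was at 2.06, 1.81 and 1.82 in MPP3 and at 1.26 to 1.51 in MPP4 (adjusted p = 0.0877, and 0.016 with array set as a term), and was called in 5 of the 8 fits that kept the term and left out 1 array. Herpud1, of the same pathway, had a difference of -0.455 (SE 0.0629, adjusted p = 0.0636, and 0.0399 with the term) and was called in 2 of those 8. Hspa5, the main ER chaperone, overlapped between the groups, with a difference of -0.091. Dnajb9, a partner of that chaperone that is not on the list, went the other way within both array sets. It was at 1.29 in MPP3 and 1.92 and 1.96 in MPP4 in set 1, and at 2.01 and 2.13 against 2.58 to 2.66 in set 2 (0.589 with array set as a term, SE 0.0382, adjusted p = 0.00553).

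The sequences before the start sites of Jchain and Derl3 are shown because both genes were called together and both stood in promoter tables from RefSeq (GRCm38.p6). Each is the 250 bases that end at the start site, 5′ to 3′ on the gene's strand. Capitals mark matches to the core letters of factors of blood lineages on either strand: AGATAA for GATA factors, GAGGAA for PU.1, TTNNGNAA for C/EBP, CAGGTG for E proteins and TGTGGT for RUNX. Jchain lay at chr5:88527898-88528147 on the minus strand and Derl3 at chr10:75893148-75893397 on the plus strand.
Jchain: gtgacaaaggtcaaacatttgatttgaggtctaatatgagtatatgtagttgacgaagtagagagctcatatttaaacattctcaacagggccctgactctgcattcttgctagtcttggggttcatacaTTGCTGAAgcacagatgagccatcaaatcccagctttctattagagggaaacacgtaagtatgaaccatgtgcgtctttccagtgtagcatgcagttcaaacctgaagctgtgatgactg
Derl3: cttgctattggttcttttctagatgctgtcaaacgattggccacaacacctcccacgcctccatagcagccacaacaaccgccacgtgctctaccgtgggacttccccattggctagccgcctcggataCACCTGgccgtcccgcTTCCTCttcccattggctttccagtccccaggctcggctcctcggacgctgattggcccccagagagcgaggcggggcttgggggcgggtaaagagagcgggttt

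The capitals in Jchain are a C/EBP match from -120 to -113, and those in Derl3 are an E protein match from -121 to -116 and a PU.1 match from -105 to -100. Such letters are common. Among the 15214 tested genes with a promoter in the table, 9.94% held the GATA letters, 25.6% those of PU.1, 36.8% those of C/EBP, 19.3% those of E proteins and 13.8% those of RUNX. Among the 92 promoters of genes called lower in MPP4 with array set as a term, the shares were 8.70%, 27.2%, 29.3%, 21.7% and 11.96%. The 124 promoters of genes called higher gave 10.5%, 32.3%, 33.1%, 17.7% and 15.3%. TGACGTGG, letters bound by XBP1, were added with the values known. They stood in 2 of the 92 promoters called lower (2.17%), 2 of the 124 called higher (1.61%) and 0.789% of all.

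The list of B lineage genes gave 1 call. Of 13 measured genes of the B lineage, 12 had a lower mean in MPP4, against 50.1% of all genes, and the median difference was -0.222. Without overlap 2 were lower, against 3.72%, and 1 was higher, against 3.74%. Pou2af1 was called lower, with array set as a term only, where 0.606% of all genes were. Pou2af1, a coactivator of the octamer factors at immunoglobulin genes, was at 2.05, 1.95 and 1.96 in MPP3 and at 0.919, 1.17, 0.361, 0.342 and 0.377 in MPP4 (-1.35, SE 0.21, adjusted p = 0.0854, and 0.016 with the term). Its 2 higher MPP4 arrays were those of array set 1, and the call held in 3 of the 8 fits that kept the term and left out 1 array. Cd79a, a signaling chain of the B cell receptor, was at 0.525 to 0.844 in MPP3 and at 0.0820 to 0.301 in MPP4 (adjusted p = 0.133). Vpreb1, of the surrogate light chain, varied widely within MPP3, at 3.77, 3.23 and 0.784, and overlapped MPP4 (1.20 to 3.28). Cd72, a B cell coreceptor, had the higher mean in MPP4 (1.59 and 2.08 without overlap, adjusted p = 0.237).

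The list of lymphoid priming genes held members that moved in opposite directions, so its median of -0.105 over 10 measured genes describes none of them. The 3 that were lower and called with array set as a term were Jchain, Ighm and Ly6d, and the 1 that was higher was Dntt. Of all genes, 0.606% were called lower with the term and 0.809% higher. Dntt encodes terminal transferase, which adds bases at the joints of antigen receptor genes and is an early mark of lymphoid commitment. It was at 2.24, 1.63 and 1.35 in MPP3 and at 3.32, 3.47, 2.81, 2.97 and 2.90 in MPP4. All 5 MPP4 arrays stood above all 3 MPP3 arrays, and within each population the arrays of set 1 stood higher. The difference was 1.36 (SE 0.233, adjusted p = 0.102), and with array set as a term 1.32 (SE 0.0878, adjusted p = 0.0057). It was 1.15 within set 1 and 1.41 within set 2, and Dntt was called in all 8 fits that kept the term and left out 1 array.

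Ly6d, a surface protein that marks B-biased lymphoid progenitors, was at 1.46, 1.40 and 1.41 in MPP3 and at 0.778, 0.948, 0.685, 0.532 and 0.580 in MPP4 (-0.721, SE 0.0917, adjusted p = 0.0528, and 0.0142 with array set as a term), and was called in 5 of the 8 fits that kept the term and left out 1 array. Il7r, the receptor chain for interleukin 7, overlapped between the groups (0.621 to 1.09 in MPP3, 0.183 to 0.907 in MPP4). Cd27, a costimulatory receptor of lymphoid-primed progenitors, was at 2.87 to 2.91 in MPP3 and at 2.67 to 2.95 in MPP4. Rag1 differed by 0.070, and Rag2 was not among the measured genes.

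The promoter of Dntt (chr19:41029025-41029274, plus strand) and that of Ccl3 (chr11:83649379-83649628, minus strand) are shown because these 2 genes had the widest differences in favor of MPP4 among the 11 that were called with array set as a term whichever array was left out.
Dntt: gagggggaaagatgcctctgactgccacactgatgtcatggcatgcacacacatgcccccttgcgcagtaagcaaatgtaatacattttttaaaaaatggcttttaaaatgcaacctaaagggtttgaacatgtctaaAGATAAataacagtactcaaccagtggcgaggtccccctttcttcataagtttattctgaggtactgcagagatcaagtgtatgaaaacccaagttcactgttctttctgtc
Ccl3: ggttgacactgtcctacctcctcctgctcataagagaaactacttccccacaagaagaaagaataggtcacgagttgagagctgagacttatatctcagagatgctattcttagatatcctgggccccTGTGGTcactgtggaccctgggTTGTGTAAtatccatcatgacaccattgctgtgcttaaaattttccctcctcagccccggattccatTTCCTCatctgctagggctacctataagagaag

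Under the same rule for capitals, Dntt held GATA letters from -112 to -107. Ccl3 held RUNX letters from -122 to -117, C/EBP letters from -100 to -93 and PU.1 letters from -33 to -28.

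Ccl3 encodes the chemokine MIP-1 alpha, which attracts myeloid and T cells and restrains the cycling of progenitors. It was at 1.04, 0.881 and 0.890 in MPP3 and at 2.49, 2.62, 2.44, 2.52 and 2.77 in MPP4. The gap between the groups was far wider than the SD within them, which was 0.0893 in MPP3 and 0.129 in MPP4. The difference was 1.63 (SE 0.0789, adjusted p = 0.000753), the largest in favor of MPP4.

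The other 9 named genes called higher in MPP4 had smaller differences, from 0.282 to 0.519, as did the 3 unnamed gene models among the 13 (0.257 to 0.575). Rgl1, an exchange factor for the small GTPase Ral, was at 0.581, 0.550 and 0.601 in MPP3 and at 0.956, 1.06, 1.10, 1.20 and 1.16 in MPP4 (adjusted p = 0.0299). Arap2 was at 0.599 to 0.687 in MPP3 and at 1.04 to 1.19 in MPP4 (adjusted p = 0.0101). Ccdc91, which takes part in transport from the Golgi, was at 0.840 to 0.911 and at 1.23 to 1.32 (0.402, SE 0.0272, adjusted p = 0.00319). Macroh2a1, the histone variant macroH2A1, stood high in both, at 3.20 to 3.25 in MPP3 and at 3.54 to 3.75 in MPP4 (adjusted p = 0.0338). Parp8, an ADP-ribosyltransferase, Ift88, of ciliary transport, Lims1, an adaptor of integrin adhesion, and Fbxo32, a ubiquitin ligase subunit, were called as well, each without overlap, and Cd93 is described with the surface receptors. Rgl1, Parp8 and Ift88 were called in 2 of the 8 fits with 1 array left out, Macroh2a1 in 3, Arap2 in 5, and Lims1 and Fbxo32 in 1 each.

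Among the genes called higher only with array set as a term, Wfdc17, a small secreted protein of myeloid cells, had the widest difference. It was at 0.600, 0.419 and 0.454 in MPP3 and at 2.77, 2.21, 1.76, 1.60 and 2.13 in MPP4 (1.60, SE 0.248, adjusted p = 0.085, and 0.0264 with the term). Kynu, an enzyme of tryptophan breakdown, was at 0.161 to 0.295 in MPP3 and at 0.655 to 0.988 in MPP4 (adjusted p = 0.0546, and 0.0363 with the term). P2ry14, a receptor for UDP-glucose, had means of 1.88 and 2.43, and Il12a, a subunit of interleukin 12, 1.10 and 1.49. All 4 genes were picked with their values in view. Wfdc17 and Kynu were called in 3 of the 8 fits that kept the term and left out 1 array, P2ry14 in 2 and Il12a in 5.

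The granule genes of myeloid progenitors were lower in MPP4 on every array for 3 of 8 measured genes, against 3.72% of all genes. None of the 8 was called. Mpo, the myeloperoxidase of primary granules, was at 4.05, 4.63 and 3.85 in MPP3 and at 3.39, 3.37, 2.90, 2.89 and 2.62 in MPP4. It stood among the top 1.53% of probe sets in MPP3 and the top 4.82% in MPP4, with a difference of -1.15 (SE 0.239, adjusted p = 0.158, and 0.0704 with array set as a term). Elane, neutrophil elastase, was at 1.17, 2.05 and 1.46 in MPP3 and at 0.401 to 0.592 in MPP4 (-1.06, SE 0.176, adjusted p = 0.0992). Ctsg, cathepsin G, was at 2.18 to 3.04 in MPP3 and at 1.19 to 1.82 in MPP4 (adjusted p = 0.159). The MPP3 arrays spread widely on these genes, with MPP3 replicate 2 the highest on each of the 3. Over the list, 7 of 8 means were lower in MPP4 and the median difference was -0.385.

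Other myeloid genes gave the same picture of wide spread. Of 15 measured myeloid progenitor genes, 11 had a lower mean in MPP4, against 50.1% of all genes. Without overlap 4 were lower, against 3.72%. Fcgr3 was the 1 called, with array set as a term only, against 0.606% of all genes called lower. Fcgr3, the low-affinity receptor for IgG that marks granulocyte-macrophage progenitors, was at 0.771, 0.873 and 0.693 in MPP3 and at 0.460 to 0.528 in MPP4 (adjusted p = 0.0672, and 0.0423 with the term), and the call was lost whenever 1 array was left out. Ms4a3, a membrane protein of granulocyte-macrophage progenitors, was at 0.704, 2.50 and 1.59 in MPP3 and at 0.141 to 0.385 in MPP4 (-1.34, adjusted p = 0.237). S100a8, an abundant neutrophil protein, was at 0.846, 1.93 and 1.54 in MPP3 and at 0.157 to 0.834 in MPP4 (adjusted p = 0.238). Lyz2, lysozyme of mature myeloid cells, differed by 0.116 in the other direction. Of 14 monocyte, macrophage and dendritic genes 9 had a lower mean in MPP4, with a median of -0.0107 and no call, and of 14 late neutrophil genes also 9, with a median of -0.0194 and no call.

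Cybb was called with and without array set as a term and in all such fits that left out 1 array, though not in the fit of all 4 groups. It encodes the catalytic chain of the phagocyte NADPH oxidase. It was at 0.888, 1.10 and 0.944 in MPP3 and at 0.220, 0.190, 0.236, 0.162 and 0.175 in MPP4, a difference of -0.780 (SE 0.0471, adjusted p = 0.00209). Ncf1, a cytosolic subunit of the same oxidase, went the other way, at 0.996, 0.810 and 0.759 in MPP3 and at 1.16 to 1.50 in MPP4 (0.494, SE 0.1, adjusted p = 0.151, and 0.0364 with array set as a term), and was called in 2 of the 8 fits that kept the term and left out 1 array.

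Of 11 measured mast cell, basophil and eosinophil genes, 10 had a lower mean in MPP4, against 50.1% of all genes, with a median of -0.12. Without overlap 4 were lower, against 3.72%. With array set as a term 2 were called lower, against 0.606%, and none without it. Cpa3, carboxypeptidase A of mast cells, was at 1.13, 1.89 and 2.00 in MPP3 and at 0.291, 0.421, 0.315, 0.197 and 0.496 in MPP4 (-1.33, SE 0.193, adjusted p = 0.0672, and 0.0346 with the term). Prg2, the major basic protein of eosinophil granules, was at 1.36, 1.82 and 1.82 in MPP3 and at 0.408, 0.812, 0.281, 0.351 and 0.261 in MPP4 (-1.24, SE 0.159, adjusted p = 0.0528, and 0.0359 with the term). Ms4a2, a chain of the IgE receptor, lay near the bottom in both (0.135 to 0.200 and 0.113 to 0.174). Both calls were kept in 3 of the 8 fits that left out 1 array.

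**Figure D2:**
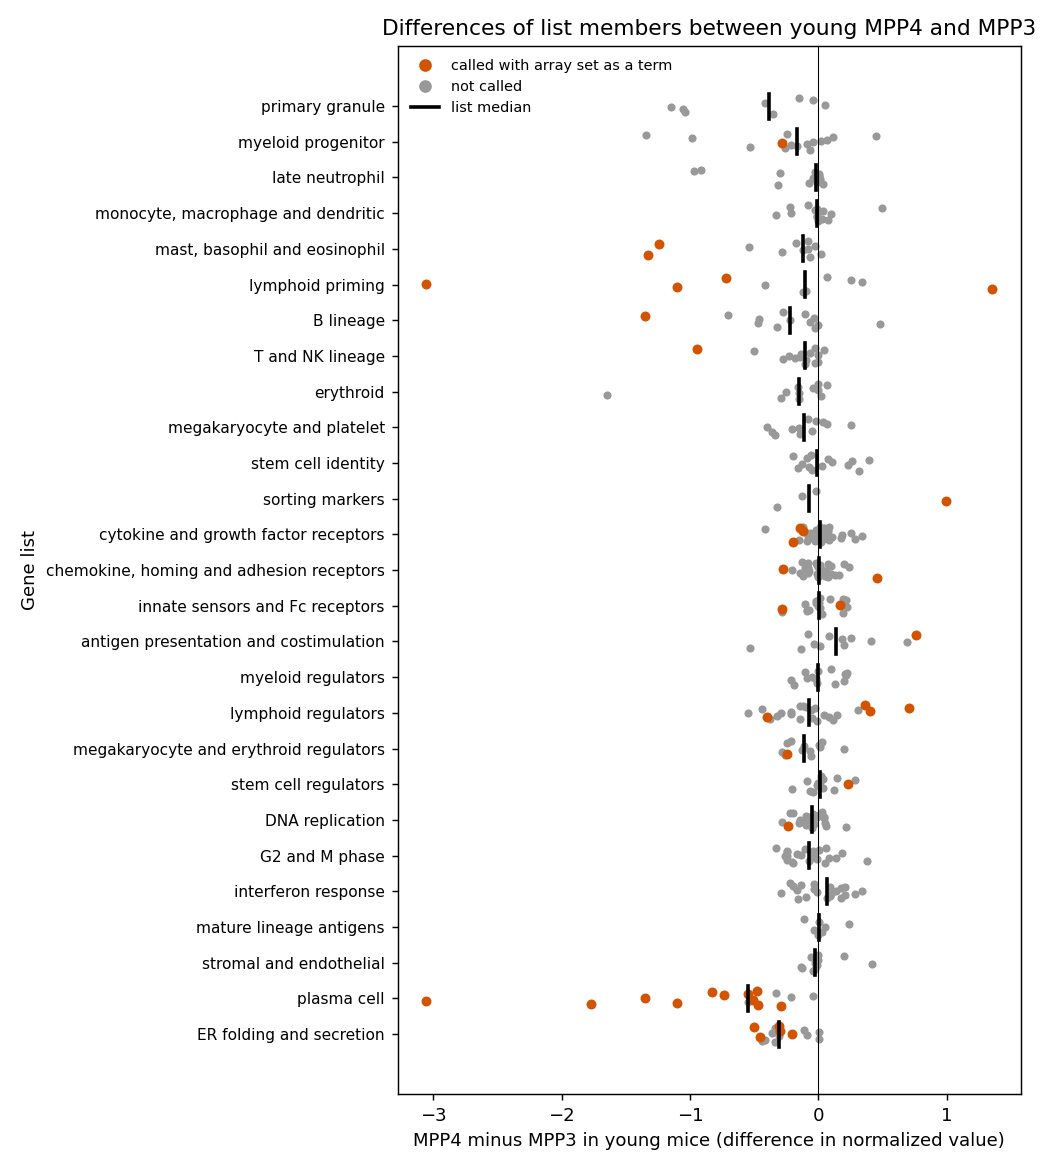
Difference in normalized value between young MPP4 and MPP3 (horizontal axis) for each measured member of 27 gene lists (vertical axis), with genes called with array set as a term in orange and list medians as black bars. The plasma cell and ER lists at the bottom were made with the values known, and their medians of -0.548 and -0.308 stand beside -0.385 for primary granule genes and 0.136 for antigen presentation.

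Thy1, a surface protein of T cells that also marks early stem and progenitor cells, was called lower in MPP4. It was at 2.08, 1.78 and 1.62 in MPP3 and at 0.866, 0.909, 0.877, 0.857 and 0.882 in MPP4, where the arrays agreed within an SD of 0.02 (-0.947, SE 0.0904, adjusted p = 0.0178). It was called in 4 of the 8 fits with 1 array left out. Of 15 measured T and NK lineage genes, 14 had a lower mean in MPP4, against 50.1% of all genes, with a median of -0.103. Without overlap 5 were lower, against 3.72%. Thy1 was the only call, against 0.0626% of all genes called lower. Cd3e differed by less than 0.01 and Cd3d by -0.023. Il2rb, a receptor chain for interleukins 2 and 15, was at 0.408 to 0.518 in MPP3 and at 0.152 to 0.309 in MPP4 (adjusted p = 0.106).

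Transcription factors of the lymphoid lineages fell into both directions. Of 24 measured, 16 had a lower mean in MPP4 and 8 a higher one. Without overlap 6 were lower, against 3.72% of all genes, and 2 were higher, against 3.74%. With array set as a term 1 was called lower, against 0.606%, and 3 were called higher, against 0.809%. Satb1, a chromatin organizer that promotes lymphoid fate, was at 2.27, 2.26 and 2.16 in MPP3 and at 3.24, 3.09, 2.77, 2.81 and 2.79 in MPP4 (0.711, SE 0.119, adjusted p = 0.0992, and 0.0206 with array set as a term). Mef2c, which favors lymphoid over myeloid choices, was at 2.65 in MPP3 and 3.00 and 3.01 in MPP4 in set 1, and at 2.25 and 2.30 against 2.65 to 2.71 in set 2. Its groups overlapped across sets and not within them, and the difference was 0.402 without the term (adjusted p = 0.325) and 0.379 with it (SE 0.0231, adjusted p = 0.00447). Tcf4, the E protein E2-2 of plasmacytoid dendritic and B cells, was at 1.83 to 1.91 in MPP3 and at 2.11 to 2.35 in MPP4 (adjusted p = 0.0672, and 0.0358 with the term). Satb1 and Tcf4 were called in 3 of the 8 fits that kept the term and left out 1 array, and Mef2c in all 8.

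Gata3, a factor of T cells, innate lymphoid cells and stem cells, was the 1 gene of the lymphoid regulator list called lower in MPP4, with and without array set as a term. It was at 0.879, 0.928 and 0.941 in MPP3 and at 0.589, 0.595, 0.434, 0.427 and 0.534 in MPP4 (-0.400, SE 0.0484, adjusted p = 0.045), and was called in 2 of the 8 fits with 1 array left out. Runx3 and Ebf1 had differences of -0.435 and -0.376 with overlapping groups. Ikzf3, a lymphoid member of the Ikaros family, was at 0.341 to 0.701 in MPP3 and at 0.204 to 0.291 in MPP4 (adjusted p = 0.229), and Ikzf1, Ikaros itself, overlapped at 2.35 to 2.45 and 2.39 to 2.78. Notch1 overlapped at 0.789 to 1.06 and 1.02 to 1.61.

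Of 13 factors of the megakaryocyte and erythroid lineages, 5 were lower in MPP4 without overlap of the groups, against 3.72% of all genes. They were Gfi1b, Gata1, Gata2, Tal1 and Zfpm1, and their differences lay between -0.281 and -0.216. Gata2, which maintains stem and mast cell programs, was at 1.59, 1.41 and 1.45 in MPP3 and at 1.30, 1.21, 1.22, 1.22 and 1.25 in MPP4 (-0.244, SE 0.0429, adjusted p = 0.106, and 0.0364 with array set as a term). It was the only call in this list, against 0.606% of all genes called lower with the term. The list had a median of -0.113 with 9 lower means. The call of Gata2 held in 3 of the 8 fits that left out 1 array. Gata1, the master factor of red cells and platelets, was at 0.971 to 1.04 in MPP3 and at 0.553 to 0.876 in MPP4 (adjusted p = 0.245). Lmo2, a partner in the same complex, was at 2.93 to 2.96 in MPP3 and at 3.00 to 3.21 in MPP4 (adjusted p = 0.21). Among 11 erythroid genes 9 had a lower mean in MPP4, led by Car1, a red cell carbonic anhydrase, at 1.60, 2.69 and 3.14 in MPP3 and at 0.456, 0.383, 0.724, 2.00 and 0.575 in MPP4 (adjusted p = 0.267).

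Regulators of the myeloid lineages showed no call. Cebpa, the main driver of granulocyte-macrophage fate, was at 1.30 to 1.70 in MPP3 and at 1.37 to 1.99 in MPP4. Spi1, the gene of PU.1, differed by -0.000177. Irf8, a factor of monocytes and dendritic cells, was at 0.638 to 0.805 in MPP3, at 1.18 and 1.22 on the MPP4 arrays of set 1 and at 0.673 to 0.805 on those of set 2, so its difference was 0.559 within set 1 and -0.000622 within set 2. Cebpe, a late granulocyte factor, was at 1.01 to 1.12 in MPP3 and at 0.735 to 0.945 in MPP4 (adjusted p = 0.2). Among stem cell regulators, Hoxa9 was at 1.17, 1.17 and 1.14 in MPP3 and at 1.46, 1.47, 1.35, 1.32 and 1.36 in MPP4 (0.235, SE 0.0399, adjusted p = 0.0992, and 0.0259 with array set as a term), and was called in 3 of the 8 fits that kept the term and left out 1 array. Hlf and Mecom overlapped, with differences of 0.121 and 0.287.

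**Figure D3:**
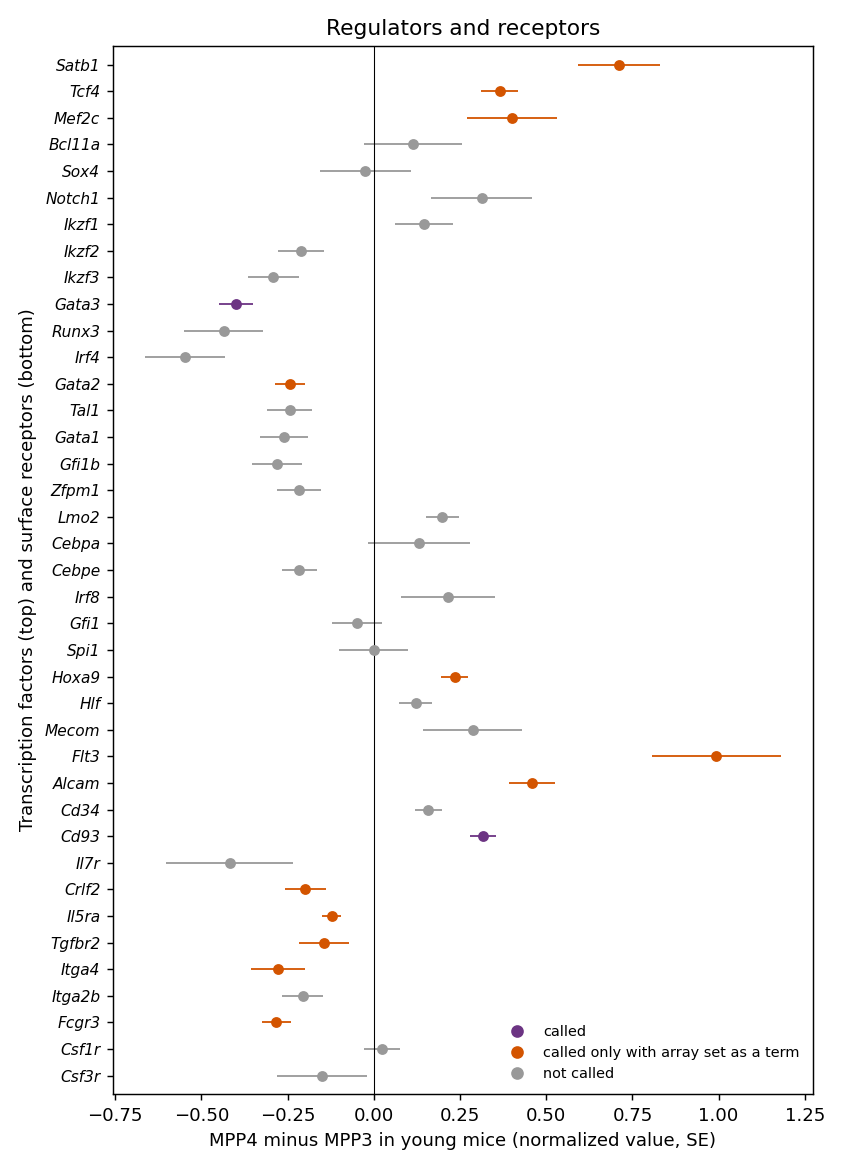
Difference between young MPP4 and MPP3 in normalized value (horizontal axis, bars are SE) for 26 transcription factors at the top and 13 surface receptors at the bottom, with genes called in both fits in purple, genes called only with array set as a term in orange and the others in grey. Gata3 at -0.400 and Cd93 at 0.316 are the purple points, and Satb1 at 0.711 lies far right among the factors.

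Of the surface proteins of the gate, Flt3 was at 2.20, 2.02 and 2.16 in MPP3 and at 3.53, 3.43, 3.01, 2.77 and 2.86 in MPP4. Flk2 separated the sorted cells, so this difference checks the labels and is not a finding. Cd48 was at 2.50 to 2.69 in MPP3 and at 2.09 to 2.62 in MPP4. Slamf1, the gene of CD150, lay near the bottom in both (0.111 to 0.168 and 0.0864 to 0.160). Kit overlapped at 3.03 to 3.10 and 2.88 to 3.06, and Ly6a, the gene of Sca-1, was not among the measured genes.

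Cd93 was called higher in MPP4. This C-type lectin of early B cells, stem cells and endothelium was at 2.44, 2.37 and 2.48 in MPP3 and at 2.80, 2.78, 2.68, 2.76 and 2.71 in MPP4 (0.316, SE 0.0374, adjusted p = 0.0417). The call was lost whichever array was left out, with adjusted p up to 0.143, while all 5 MPP4 arrays lay above all 3 MPP3 arrays. Alcam, an adhesion molecule, was at 1.46 to 1.63 in MPP3 and at 1.86 to 2.12 in MPP4 (0.459, SE 0.0671, adjusted p = 0.0672, and 0.0421 with array set as a term). Cd34 was at 3.23 to 3.36 and at 3.38 to 3.51 (adjusted p = 0.218). Itga4, the integrin that binds VCAM-1, was at 2.75 to 2.94 in MPP3 and at 2.46 to 2.73 in MPP4 (-0.278, adjusted p = 0.266, and 0.0179 with the term). Alcam was called in 2 and Itga4 in 3 of the 8 fits that kept the term and left out 1 array.

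Cytokine receptors had small differences. Of 35 measured, 21 had a higher mean in MPP4 and 14 a lower one, with a median of 0.011. Crlf2, the receptor for TSLP, Il5ra, the receptor chain for interleukin 5, and Tgfbr2 were called lower with array set as a term. Their differences were -0.199, -0.123 and -0.145. They are 3 of the 35, where 0.606% of all genes were called lower with the term. Il5ra lay near the bottom in both populations, at 0.195 to 0.249 and 0.0721 to 0.158. Crlf2 was called in 1, Il5ra in 2 and Tgfbr2 in 0 of the 8 fits that left out 1 array. Csf1r and Csf3r, the receptors for M-CSF and G-CSF, overlapped, with differences of 0.0252 and -0.150. Among 30 chemokine, homing and adhesion receptors the median was 0.00458, and among 21 innate sensors and Fc receptors 0.00325.

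Of 12 measured genes of antigen presentation, 8 had a higher mean in MPP4, with a median of 0.136. The 1 called was H2-Ob, with array set as a term only, where 0.809% of all genes were called higher. H2-Ob, a chain of the class II modulator H2-O, was at 1.41, 1.35 and 1.07 in MPP3 and at 2.41, 2.23, 1.95, 1.79 and 1.81 in MPP4 (0.762, SE 0.162, adjusted p = 0.161, and 0.0314 with array set as a term), and was called in 3 of the 8 fits that left out 1 array. H2-Ab1, a class II beta chain, was at 1.92 to 2.03 and at 2.24 to 2.60, and H2-Aa, the alpha chain, overlapped at 0.765 to 1.35 and 1.22 to 2.15. Cd74, the invariant chain of class II, went the other way, at 1.16, 1.60 and 1.67 in MPP3 and at 0.739 to 1.09 in MPP4 (-0.528, SE 0.13, adjusted p = 0.218).

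**Figure D4:**
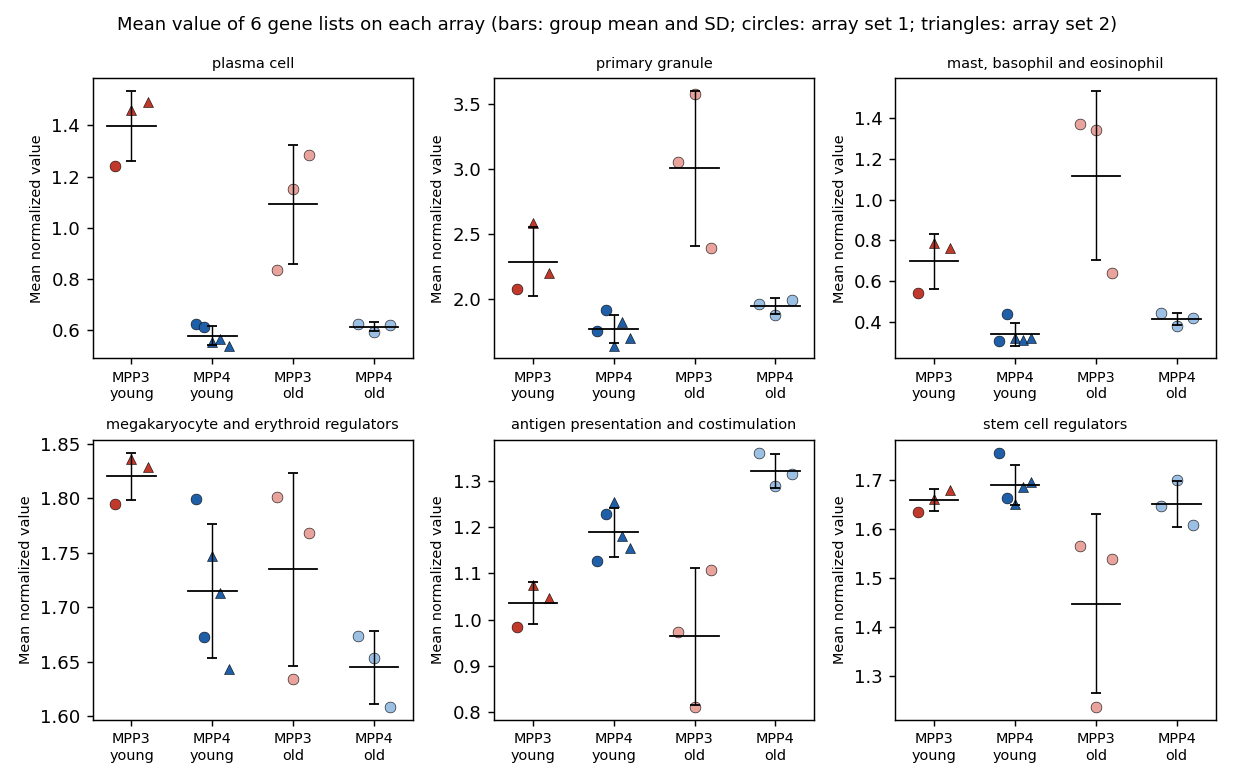
Mean normalized value of the members of 6 gene lists (vertical axes, each with its own range) on each array of young and old MPP3 (red) and MPP4 (blue). In young mice the plasma cell list lay at 1.24 to 1.49 in MPP3 and at 0.540 to 0.625 in MPP4, the primary granule list at 2.07 to 2.59 and 1.64 to 1.92, and the antigen presentation list at 0.985 to 1.07 and 1.13 to 1.25.

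The lists of DNA replication and of G2 and M phase gave 1 call between them. Of all genes, 50.1% had a lower mean in MPP4 and 0.606% were called lower with array set as a term. Of 25 DNA replication genes, 18 had a lower mean in MPP4 with a median of -0.0511, and Cdc6, which licenses replication origins, was called with array set as a term (1.49 to 1.55 in MPP3, 1.20 to 1.38 in MPP4, adjusted p = 0.0314, and 0.161 without it) and in 3 of the 8 fits that kept the term and left out 1 array. Cdk6, a kinase of G1 phase (-0.397), Fbxo5, an inhibitor of the anaphase-promoting complex (0.232), and Gins3, of the replicative helicase (0.302), are on neither list and were also called with the term, each in 2 of those 8 fits. Of 23 genes of G2 and M phase, 16 had a lower mean with a median of -0.072 and no call. Mki67 was at 2.72 to 2.93 in MPP3 and at 2.61 and 2.94 on the MPP4 arrays of set 1 against 2.39 to 2.59 on those of set 2. Interferon response genes had a median of 0.065 over 21 members, and stem cell identity genes -0.0124 over 14. Stromal and endothelial genes had a median of -0.0252 over 13, and mature lineage antigens 0.00217 over 7. Pecam1 of the first list is also among the homing and adhesion receptors, and the second holds Ptprc, the gene of CD45. Neither list thus marks only cells outside the gate.

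The old arrays did not enter the fit of the 8 young arrays without a term, beyond the choice of probe sets. They took part in the clustering behind the array sets, and so in defining the fit that held that term. All 25 genes called in young mice had the same sign of difference in old mice, where 57.4% of all genes did. In old mice 17 of the 25 did not overlap in that direction, where 16.6% of all genes did not overlap in either direction. With array set as a term, 227 of the 271 called genes (83.8%) had the same sign. Jchain had means of 2.24 in old MPP3 and 0.0559 in old MPP4, a difference of -2.18 (SE 0.37), and Ccl3 of 1.08 and 2.67 (1.59, SE 0.202). Ccdc91, by contrast, was at 1.26 and 1.31 in old mice (0.0562, SE 0.134), and Utp25, a factor of ribosome assembly called lower in young MPP4 (-0.270), at 1.69 and 1.66.

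In old mice Mpo had means of 5.34 in MPP3 and 3.20 in MPP4 (-2.14, SE 0.511), Elane 2.65 and 0.505 (-2.15, SE 0.388), and Dntt 1.35 and 3.38 (2.03, SE 0.331). No gene was called between the populations in old mice by limma on 3 against 3 arrays, with 1882 at an unadjusted p under 0.05. The change of the difference with age was tested over all 14 arrays. No gene passed, with 1200 at an unadjusted p under 0.05 and a lowest adjusted p of 0.2. The count rested on the settings: it was 574 with array weights, 2 with a variance trend, 10 without old MPP3 replicate 3 and 4 without young MPP3 replicate 1. All old arrays lay in array set 1, so the array set differed between the ages too, and its part in the old values was not tested.

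**Figure D5:**
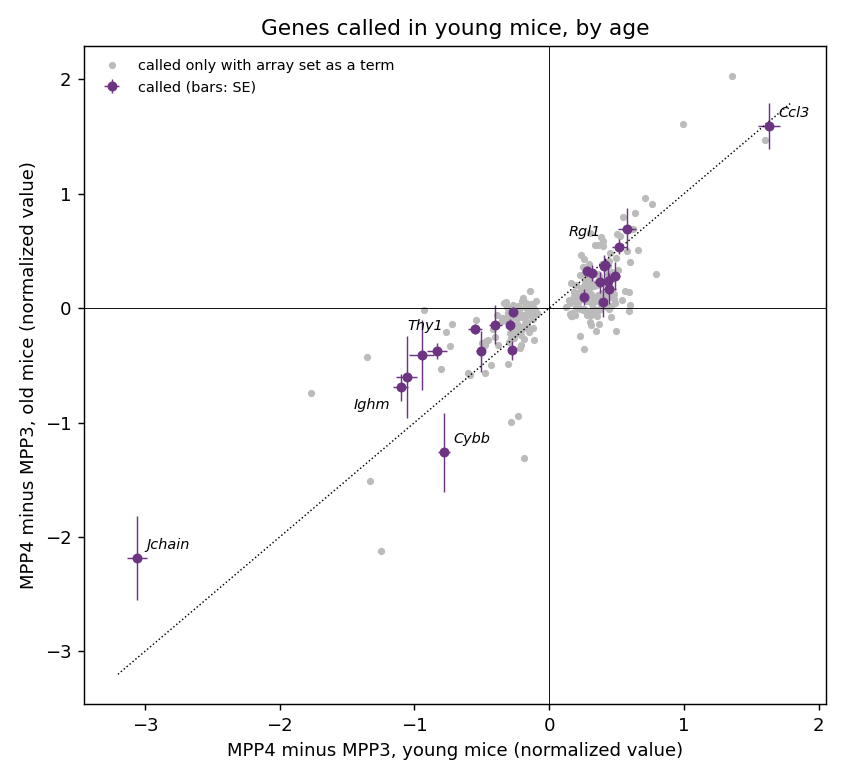
Difference between MPP4 and MPP3 in normalized value in young mice (horizontal axis) and old mice (vertical axis) for the 25 genes called in young mice (purple, bars are SE) and those called only with array set as a term (grey), with a dotted line of equal difference. All 25 purple points lie in the lower left or upper right, from Jchain at -3.06 and -2.18 to Ccl3 at 1.63 and 1.59.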

How the data were processed

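The deposited values are a score: per the labels and the study's methods, the authors ran RMA on Affymetrix Mouse Gene ST 1.0 arrays and mapped each array by quantiles onto an exponential reference distribution, so that a value is minus the natural log of a rank share. Converted back, 92.3% of entries fell within 0.01 of a whole rank among 25307. Values were used as deposited, and the number of arrays limits precision. Of 22115 probe sets, 2135 were not listed in the platform annotation and 744 had several symbols. The remaining 19236 gave 19155 genes, each by its probe set with the highest mean over all 14 arrays, and 71 probe sets had no Entrez match to RefSeq. No dim gene was left out.

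MPP4 minus MPP3 was fitted on the 8 young arrays with limma 3.58.1 in R 4.3.3 (lmFit, eBayes, two-sided, Benjamini-Hochberg over all genes, threshold 0.05). The procedure was tested on simulated data. Array set was found by clustering all 14 arrays on the dimmest probe sets, with the number of groups set to 2 (median correlation of deviations 0.0736 within and -0.269 between sets). Other settings were 1 fit of all 4 groups, array weights, a variance trend, other scalings, filters and a replicate block. Further ones were the t-test that the study's methods name for pairs of groups in general, arrays with Xist under 1 and leaving out each array. Fits of array set 2 alone, of array set as a term with Xist under 1 and of that term with 1 array left out were added once the data had been seen.

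The rule for named genes took up to 12 called genes per direction without overlap, gene models excluded, with up to 4 members per list by moderated statistic, the sorting markers and a set of lineage genes. Others that are named, among them Igha, Xbp1, Prdm1, Sdc1, Sel1l, Herpud1, Dnajb9, Cdk6, Fbxo5, Gins3, Wfdc17, Kynu, P2ry14, Il12a, Ncf1 and Tcf4, were picked with their values in view. The genes and lists were chosen with earlier results of these data known. Figures were drawn with matplotlib 3.10.9 in Python 3.11.15.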

Additional observations from a re-analysis of the deposited data

Results flagged for a closer look

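For 8 of the 127 genes named by rule, 1 of the 5 young MPP4 arrays stood apart from the other 4, judged by its gap to the nearest array as a share of the group's range, where chance gives about 6.35. For Jchain the share was 0.762 on MPP4 replicate 4, at 0.135 against 0.0302 to 0.0553, all of them far below the MPP3 arrays. Car1, the carbonic anhydrase of red cells, stood apart on the same array with 0.789, at 2.00 against 0.383 to 0.724, and so did Vdr, the vitamin D receptor, with 0.889, at 0.714 against 0.560 to 0.577. Prg2 stood apart on MPP4 replicate 2 with 0.732, at 0.812 against 0.261 to 0.408, and Cd9 on MPP4 replicate 1 with 0.724, at 0.594 against 0.880 to 0.988. Cd5 (0.754), Cdc20 (0.725) and Irf9 (0.791) stood apart on MPP4 replicate 3.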

How the results depend on the processing

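All 25 genes called between young MPP4 and MPP3 kept their direction under every setting run, but the number of calls did not hold. Where a setting only left out or weighted arrays, genes without overlap could not change direction. Against 13 genes called higher in MPP4 and 12 lower, a variance trend with robust estimation gave 21 and 27, leaving out the dimmest 33.3% of genes 32 and 27, normal scores 24 and 28, array weights 933 and 875, array set as a term 155 and 116, and array set 2 alone 824 and 668. One fit of all 4 groups gave 18 and 18 and kept 13 of the 25 calls. For the arrays the study's methods name Significance Analysis of Microarrays, between young and old cells, which was not run here. The two-tailed t-test is their general test for pairs of groups. It gave 3 and 6 after Benjamini-Hochberg adjustment and 1955 genes in all at the unadjusted threshold of 0.05. Leaving out 1 array gave 2 to 43 higher and 5 to 65 lower, and with array set as a term 6 to 493 higher (among them 295, 183, 21 and 22 without MPP4 replicates 1 to 4) and 6 to 424 lower (243, 119, 19 and 15). On arrays with Xist under 1 (2 of each population) limma called 0 and 0, with 2517 genes at an unadjusted p under 0.05, and with array set as a term as well 0 and 0, with 3907. The replicate block gave 0 and 0, with 1683 genes at an unadjusted p under 0.05. Deviations of same-numbered arrays correlated at 0.407, -0.148 and 0.178, and those of differently numbered arrays at -0.442 to 0.356. With only 3 such pairs these values cannot decide whether the numbers pair the arrays. The main fit treated the arrays as unpaired. Genes whose difference changed with age numbered 0, and 574 with array weights, 2 with a variance trend and 0 to 10 with 1 array left out. The causes were not tested.

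Genes near 0 changed sign. With 1 array left out, Cd4 ranged up to 0.0904, Csf1r up to 0.046 and Epor down to -0.068. Cd4 went to -0.0288 with array weights, -0.0209 on array set 2 and -0.0213 without MPP3 replicate 1, and with the term as well to -0.0209. Csf1r went to -0.0291 with array set as a term on arrays with Xist under 1, -0.0263 with array weights, -0.0453 on array set 2, -0.00857 without MPP4 replicate 1, and with the term to -0.00434 without that array and -0.0453 without MPP3 replicate 1. Epor went to 0.0273, 0.021, 0.0165 and 0.00586, Ikzf1 to -0.0138, Irf8 to -0.0848 and -0.000622, Slamf1 to 0.0207 and 0.00203 and Vwf to 0.00572, each under Xist, array set 2 or single-array settings.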
